A study of Homo sapiens with 6 samples.

Results

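The genes described here are 10 that drive or mark mitosis: the cyclin genes CCNA2, CCNB1 and CCNB2, the kinase genes CDK1, PLK1, AURKA, AURKB and BUB1, the proliferation marker MKI67 and the spindle gene HMMR. They were chosen by gene symbol, and all 10 were found among the 23228 genes in the files. Their RNA was read in MDA-MB-231, a widely used line of human breast cancer that lacks the oestrogen, progesterone and HER2 receptors. Cells in both groups received a lentivirus carrying an shRNA (a short hairpin RNA that directs the breakdown of a matching transcript) and were kept under puromycin for a week. In 3 libraries the shRNA was scrambled, and in 3 it was directed against SCUBE3, a secreted signalling protein. The labels do not give the hairpin sequence, whether more than 1 hairpin was used, or whether replicates are separate cultures. A p-value here therefore weighs a difference only against the spread of these libraries, and that spread may be technical.

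Entry into mitosis is driven by CDK1, a kinase that is active only when bound to a cyclin. Cyclin A2 is made from S phase on and cyclins B1 and B2 mainly in G2, and all are destroyed during mitosis, cyclin A2 first, through the anaphase-promoting complex. PLK1 and Aurora A help to switch CDK1 on and build the spindle, while Aurora B and BUB1 act at centromeres and kinetochores, where chromosomes meet the spindle. The transcripts of these genes peak together in G2 and mitosis in dividing cells, under the DREAM complex, which keeps them low in resting cells, and its activating counterpart with MYBL2 and FOXM1. In bulk RNA a change in the share of cells in G2 and mitosis cannot be told apart from a change in RNA per cell.

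Reads in genes numbered 21348509 to 25520901 per library. SCUBE3 itself, which checks the labels, was not lower: it had 4.04, 4.34 and 3.60 CPM (read counts brought to a common library size, with TMM factors) in scramble and 3.97, 4.13 and 4.09 CPM in the others, a log2 fold change of 0.03 with a 95% interval from -0.26 to 0.31 (edgeR quasi-likelihood adjusted p = 0.871). The groups are therefore called scramble and labelled knockdown. Markers of the line were high in both groups (VIM, CD44, AXL, EGFR and CAV1 together 6830 to 7180 CPM in scramble and 5510 to 5660 in the labelled knockdown). Within that sum VIM (4370 and 2394 CPM), AXL (1281 and 1139) and EGFR (394 and 220.4) were lower in the labelled knockdown, and CD44 (577 and 1046) and CAV1 (360.3 and 772) higher. Of genes that are low in this line, CDH1 (0 to 2 reads in scramble and 42 to 58 in the others) and GATA3 (5.91 and 15.5 CPM) were higher in the labelled knockdown. PGR (18 to 25 reads and 0 in each) and ERBB3 (12.2 and 5.86 CPM) were lower, and ESR1 had 1 to 4 reads in scramble and 0 in the others. Of 14 leukocyte, fibroblast and endothelial markers, DCN had 0 reads in all libraries. The summed leukocyte markers ran from 0.238 to 0.589 CPM in scramble and from 6.13 to 6.85 in the labelled knockdown, nearly all of the latter CD14 (6.19 CPM), with PTPRC at 0.133 and 0.145. Fibroblast markers summed to 3.58 to 4.63 and 15.9 to 18.8 CPM, and endothelial markers to 0.810 to 1.47 and 2.60 to 2.85. The part of these markers in the results was not tested. Reads aligned to several places made up 34.0% to 34.2% of the total in scramble and 29.3% to 29.6% in the labelled knockdown, and their part in the results was not tested either.

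Many promoters of this kind carry a short element called the CHR close to the transcription start, bound by the DREAM complex, and upstream CCAAT boxes, bound by NF-Y. RefSeq promoter entries (build GRCh38.p14, 250 bases before to 50 after a start) were matched for 9 of the 10 genes, and AURKA was not matched. The stretches shown are the 130 bases before the start of the 3 cyclin genes, and of HMMR and MKI67, which differed most in the opposite direction from CCNA2 and CCNB1. Capitals mark the CHR letters TTTGAA on either strand, the variants CTTGAA and also TTTAAA, and the CCAAT box.
CCNA2, chr4:121823884-121824013, minus strand: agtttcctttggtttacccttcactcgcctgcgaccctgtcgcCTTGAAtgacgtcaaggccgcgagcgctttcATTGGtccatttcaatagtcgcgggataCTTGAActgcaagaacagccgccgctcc
CCNB1, chr5:69167020-69167149, plus strand: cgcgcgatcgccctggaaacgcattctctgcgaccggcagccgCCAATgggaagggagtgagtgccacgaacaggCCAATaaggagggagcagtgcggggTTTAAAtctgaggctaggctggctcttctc
CCNB2, chr15:59105016-59105145, plus strand: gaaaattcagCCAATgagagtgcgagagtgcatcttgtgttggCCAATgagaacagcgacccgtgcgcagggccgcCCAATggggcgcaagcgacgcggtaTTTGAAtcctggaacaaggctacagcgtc
HMMR, chr5:163460502-163460631, plus strand: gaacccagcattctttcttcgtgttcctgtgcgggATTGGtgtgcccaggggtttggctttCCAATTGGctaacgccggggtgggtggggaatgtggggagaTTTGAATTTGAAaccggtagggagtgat
MKI67, chr10:128126424-128126553, minus strand: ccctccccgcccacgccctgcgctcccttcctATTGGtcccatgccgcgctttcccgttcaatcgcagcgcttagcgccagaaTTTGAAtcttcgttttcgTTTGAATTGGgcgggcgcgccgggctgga

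In these stretches a hexamer of the CHR kind lay at nearly the same distance from the start. Its first base was 28 bases before the start in CCNA2 (CTTGAA), 30 in CCNB1 (TTTAAA), 29 in CCNB2 (TTTGAA), 29 in MKI67 and 28 in HMMR (TTTGAA), and HMMR had a further copy directly after it, 22 bases before the start. PLK1 had TTTGAA at 29 bases before the start as well. In CDK1 no hexamer lay at that distance: TTTGAA began 161 bases before the start in 1 entry, and 69 and 13 bases before and 9 after it in the other. AURKB and BUB1 had none of these hexamers. How many of all promoter entries carry one at that distance was not counted. In the whole windows TTTGAA was found for 5 of 9 genes (CCNB2, CDK1, PLK1, MKI67 and HMMR) and in 15.2% of 35116 promoter entries. CTTGAA was found for CCNA2 alone of the 9 (11.2% of entries) and TTTAAA for 4 (12.2%). A CCAAT box was found for all 9, against 34.6% of entries. The second TTTGAA of MKI67 overlaps a CCAAT box on the other strand, and in HMMR 2 CCAAT boxes on opposite strands overlap. These matches are letters in a window and not measured binding.

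The 10 genes did not move as a block. CCNA2, CCNB1, AURKA and BUB1 were higher in the labelled knockdown, HMMR, MKI67, PLK1, CCNB2 and CDK1 were lower, and AURKB did not pass. All 10 passed the low-count filter. Thus 9 of 10 passed an adjusted p of 0.05 (edgeR quasi-likelihood test, Benjamini-Hochberg over 13606 genes), where 85.9% of all genes passed, 4 of 10 were higher against 43.4% of all genes, and 5 were lower against 42.5%. The libraries of both groups did not overlap for 9 of 10 genes, against 85.8% of all genes tested. The median log2 fold change was -0.02, beside 0.01 over all genes, and the median size of the change, whichever its sign, was 0.42, beside 0.64. These shares are near the background. Set beside the promoter letters, the 5 genes with TTTGAA were the 5 lower ones, and of the 4 matched genes without it 3 were higher and AURKB did not pass. The same letters did not part the list genes described further on, of which 22 of 40 with TTTGAA and 20 of 39 without it were lower, nor all tested genes with an entry (45.5% of 1313 lower with it and 43.8% of 8052 without it). This split was seen after the values, was not tested, and includes CDK1, whose direction turns with the correction given for it. Against a change of 1.5-fold (edgeR glmTreat), 2 genes were higher, CCNA2 and CCNB1, and 2 lower, MKI67 and HMMR. By that test 45.9% of all genes passed, 24.3% higher and 21.6% lower.

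**Figure D1:**
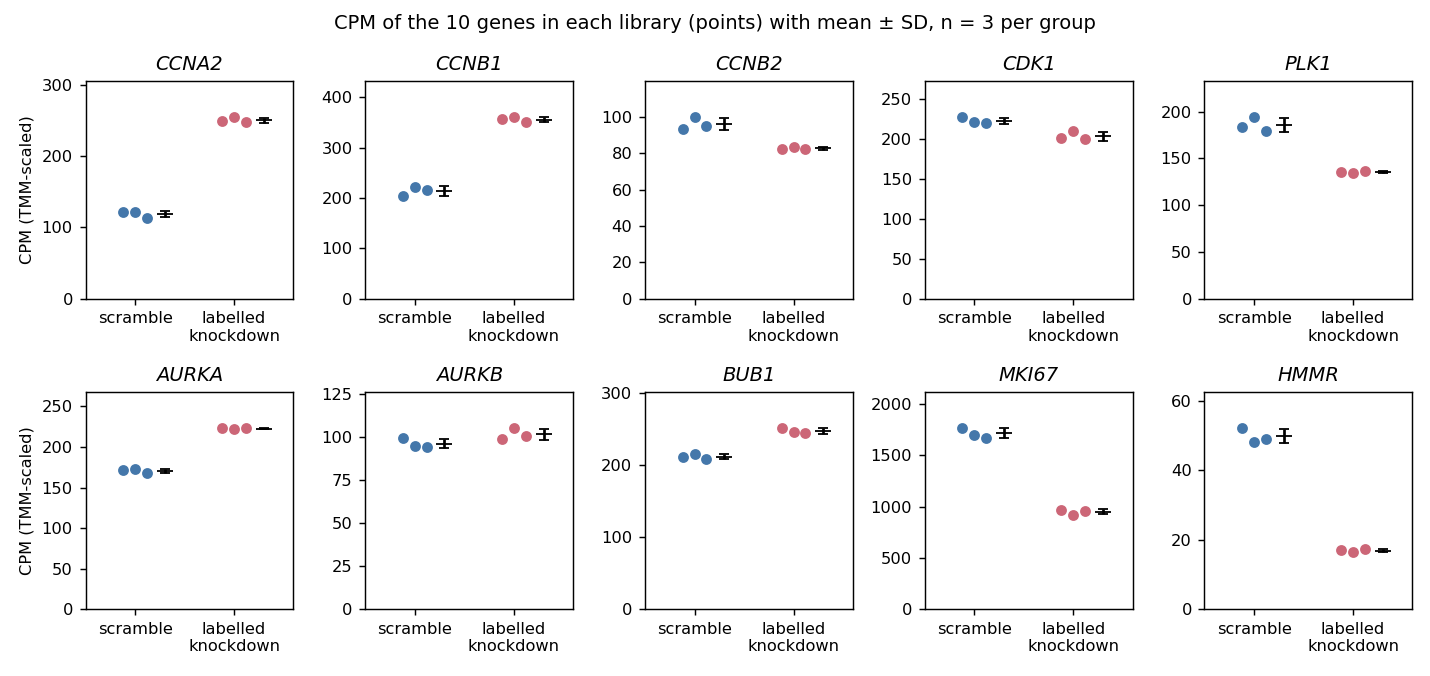
TMM-scaled CPM (vertical axes, each from 0) of the 10 genes in each of the 3 scramble libraries (blue points) and the 3 labelled knockdown libraries (red points), with the mean ± SD of each group in black. The groups are apart for every gene but AURKB, with CCNA2 at 114 to 122 against 247 to 254 CPM and HMMR at 48.3 to 52.2 against 16.4 to 17.4 CPM.

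Of the 3 cyclin genes among the 10, CCNA2 differed most. It encodes cyclin A2, the partner of CDK2 in S phase and of CDK1 in G2. CCNA2 had 121, 122 and 114 CPM in the scramble libraries and 249.8, 254 and 247 CPM in the labelled knockdown. The labelled knockdown libraries lay at 2.11-fold the scramble level on average, with no overlap. Its log2 fold change of 1.08 had a standard error (SE) of 0.04 (edgeR adjusted p = 4.17e-27). CCNA2 lies tail to tail with EXOSC9, an RNA exosome gene on the other strand, and shares 9.08% of its exonic bases with it. EXOSC9 was higher to a similar degree, with 47.5 ± 2.18 CPM in scramble and 98.7 ± 2.92 in the other group (SD, n = 3; log2 fold change 1.06 ± 0.05 SE). The strand setting of the counting is not given in the sources used here, and the part of the shared bases was not tested.

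CCNB1 encodes cyclin B1, the main partner of CDK1 at entry into mitosis. It had 204, 222 and 216 CPM in scramble and 357, 360.4 and 351 CPM in the labelled knockdown. All of the latter lay above all of the former, 1.66-fold on average (log2 fold change 0.73 ± 0.03 SE; edgeR adjusted p = 1.48e-22). CCNB2 encodes cyclin B2, a related partner of CDK1 found largely at the Golgi. It had 93.4, 99.7 and 94.8 CPM in scramble and 82.1, 83.5 and 82.2 CPM in the labelled knockdown. CCNB2 was thus lower by a small margin, without overlap (log2 fold change -0.22 ± 0.04 SE; adjusted p = 9.18e-06). The B-type cyclin genes therefore went in opposite directions in the same libraries.

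CDK1, the kinase that these cyclins activate, had 227, 221 and 219.7 CPM in scramble and 200.8, 210.4 and 200.4 CPM in the labelled knockdown. The groups did not overlap, but the gap was small: CDK1 dropped by 8.52%. The log2 fold change of CDK1 was -0.13 ± 0.03 (SE; edgeR adjusted p = 5.33e-04), and it turned to 0.18 when each library was corrected for GC content and transcript length (adjusted p = 5.59e-07). The direction for CDK1 therefore rests on that choice.

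PLK1 encodes Polo-like kinase 1, which promotes entry into mitosis and centrosome maturation. PLK1 had 184, 194 and 179.8 CPM in scramble and 136, 135 and 136 CPM in the labelled knockdown. The lower group was very tight (SD 0.655 CPM against 7.28 in scramble), and the groups were well apart. Its log2 fold change was -0.46 ± 0.04 (SE; edgeR adjusted p = 8.55e-15), and -0.83 with the correction for GC content and length. An annotated antisense transcript shares 11.6% of the exonic bases of PLK1 and was not analysed here.

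The Aurora kinase genes did not change alike. AURKA encodes Aurora A, the kinase of centrosomes and spindle poles. It had 172, 173 and 167 CPM in scramble and 223, 222 and 223 CPM in the labelled knockdown, 1.31-fold higher with no overlap (log2 fold change 0.39 ± 0.03 SE; edgeR adjusted p = 9.30e-14). Of the 50-base windows in its transcript 7.91% also occur in transcripts of other genes, among them processed copies of AURKA, so some of its reads may not have been placed. AURKB encodes Aurora B, the kinase of the chromosomal passenger complex. It had 99.3, 94.97 and 94.3 CPM in scramble and 98.9, 105 and 101 CPM in the labelled knockdown, and the groups overlapped through scramble replicate 1. The log2 fold change of AURKB was 0.08 ± 0.04 (SE) with a 95% interval from -0.003 to 0.16 (edgeR adjusted p = 0.0661). Without scramble replicate 1 it was 0.11 (adjusted p = 0.0224), without labelled knockdown replicate 1 it was 0.10 (adjusted p = 0.0478), and without the other libraries the adjusted p ran from 0.0970 to 0.266. With the correction for GC content and length AURKB was lower (-0.43; adjusted p = 8.02e-12). AURKB has no settled direction in these data.

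BUB1 encodes a kinase of the spindle checkpoint, which delays anaphase until all chromosomes are attached. It had 211, 215 and 208 CPM in scramble and 251, 245 and 244 CPM in the labelled knockdown. These groups did not overlap, and BUB1 was 1.17-fold higher in the labelled knockdown (log2 fold change 0.22 ± 0.03 SE; edgeR adjusted p = 4.35e-08).

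MKI67 encodes Ki-67, a nuclear protein that coats mitotic chromosomes and is stained in tumours to count dividing cells. MKI67 had 1766, 1702 and 1670.4 CPM in scramble and 969, 922 and 959 CPM in the labelled knockdown. Its scramble level was 1.80-fold the other (log2 fold change -0.85 ± 0.03 SE; edgeR adjusted p = 4.82e-27), with no overlap. The log2 fold change of MKI67 was smaller, -0.61, with the correction for GC content and length. Its transcript, at 12678 bases, is the longest of the 10. MKI67 alone gave 55.6% of the summed CPM of these genes in scramble and 37.0% in the labelled knockdown. That sum was 3079 ± 59.4 CPM in scramble and 2566 ± 15.8 in the other group (SD, n = 3), and without MKI67 it was 1366 ± 23.3 and 1617 ± 15.1. This sum of CPM, which is not divided by transcript length, therefore turns its direction with the inclusion of 1 gene. The turn does not extend to a score of levels per kilobase.

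HMMR encodes a hyaluronan-binding protein that acts inside the cell on spindle assembly with TPX2 and Aurora A. It was the most changed of the 10. HMMR had 52.2, 48.3 and 49.0 CPM in scramble and 17.0, 16.4 and 17.4 CPM in the labelled knockdown, that is 1013 to 1240 reads against 425 to 430. The scramble level was 2.94-fold the other, and the groups were far apart (log2 fold change -1.56 ± 0.06 SE; edgeR adjusted p = 1.05e-24). With the correction for GC content and length HMMR was at -1.30. An antisense gene, HMMR-AS1, overlaps 2.87% of its exonic bases.

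**Figure D2:**
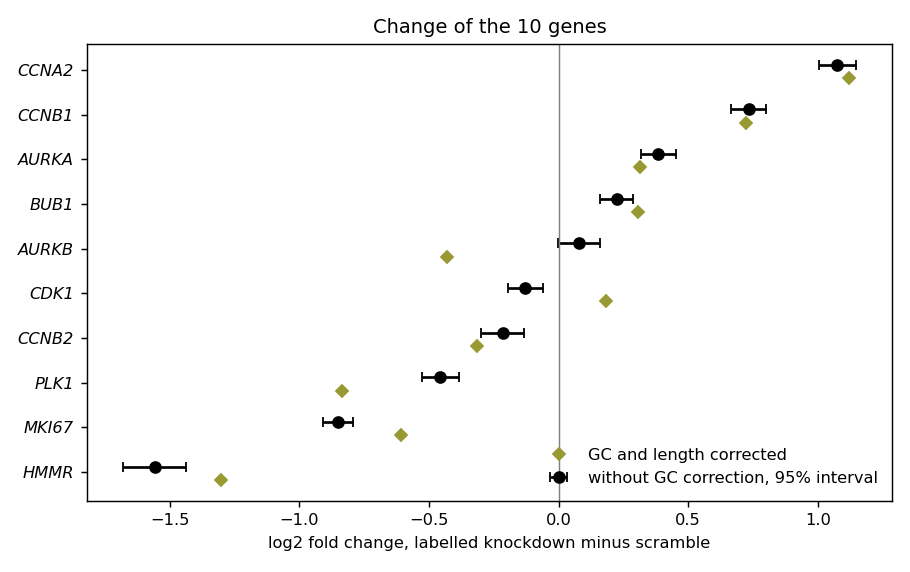
Log2 fold change of the 10 genes, labelled knockdown minus scramble (horizontal axis), with its 95% interval (black) and after correcting for GC content and length (diamonds). The order runs from HMMR at -1.56 to CCNA2 at 1.08, and the correction turns CDK1 from -0.13 to 0.18 and AURKB from 0.08 to -0.43.

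Divided by transcript length (CPM per kilobase, 1 GENCODE release 29 transcript per gene), the order of the levels differed between the groups. In scramble MKI67 was highest at 135 ± 3.84 CPM per kilobase, followed by CDK1 (116 ± 2.08) and CCNB1 (98.8 ± 4.34), and CCNA2 was ninth (42.5 ± 1.56). In the labelled knockdown CCNB1 was highest at 164 ± 2.28, followed by CDK1 (107 ± 2.96), AURKA (99.1 ± 0.362) and CCNA2 (89.6 ± 1.29), with MKI67 sixth (74.9 ± 1.93; SD, n = 3 throughout). HMMR was last in both groups (16.7 ± 0.696 and 5.67 ± 0.169). Among neighbours in the order, library values overlapped in scramble for PLK1 with AURKB and for CCNB2 with BUB1, and for none in the labelled knockdown. Of 11967 tested genes with a length, 96.1% lay below MKI67 in scramble and 91.8% in the labelled knockdown. HMMR fell from above 64.0% of genes to above 36.5%. The other 8 lay above at least 84.1% of genes in scramble and 87.6% in the labelled knockdown.

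Ratios of 2 genes within a library do not depend on how libraries are scaled. Of 8 ratios chosen, the libraries of both groups overlapped for none. Each had an exact two-sided permutation p of 0.1 (n = 3 per group, and 0.1 after adjustment over the 8), which is the smallest this design allows. How many other pairs of genes part the groups was not counted. For single genes the groups did not overlap in 85.8% of all genes tested, so the parting is not particular to these pairs. CCNB1 had 2.18, 2.23 and 2.28 reads for each read of CCNB2 in scramble and 4.34, 4.32 and 4.27 in the labelled knockdown. This is a 1.93-fold shift between the B cyclins. CDK1 had 1.12, 0.996 and 1.02 reads for each CCNB1 read in scramble and 0.563, 0.584 and 0.572 in the labelled knockdown. The kinase and its main cyclin were thus read about equally often in scramble and not in the other group. PLK1 went from 1.07, 1.12 and 1.07 reads per AURKA read to 0.607, 0.608 and 0.610.

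The other ratios set the 10 genes against close partners. AURKA against AURKB went from 1.77 ± 0.0448 to 2.19 ± 0.0771 (SD, n = 3), and CCNA2 against CCNB1 from 0.556 ± 0.0351 to 0.704 ± 0.00327. BUB1 against BUB1B, which encodes the checkpoint protein BUBR1, went from 1.28 ± 0.0276 to 1.98 ± 0.0983. MKI67 against TOP2A, the topoisomerase gene of dividing cells, went from 2.05 ± 0.0493 to 1.16 ± 0.0223. HMMR against TPX2, the Aurora A activator, went from 0.0654 ± 0.00162 to 0.0341 ± 0.00107. All 8 differences kept their sign after the correction for GC content and length, but sizes changed. AURKA against AURKB grew from a log2 difference of 0.31 to 0.75, and PLK1 against AURKA from -0.84 to -1.15. CDK1 against CCNB1 shrank from -0.86 to -0.54, and HMMR against TPX2 from -0.94 to -0.71.

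**Figure D3:**
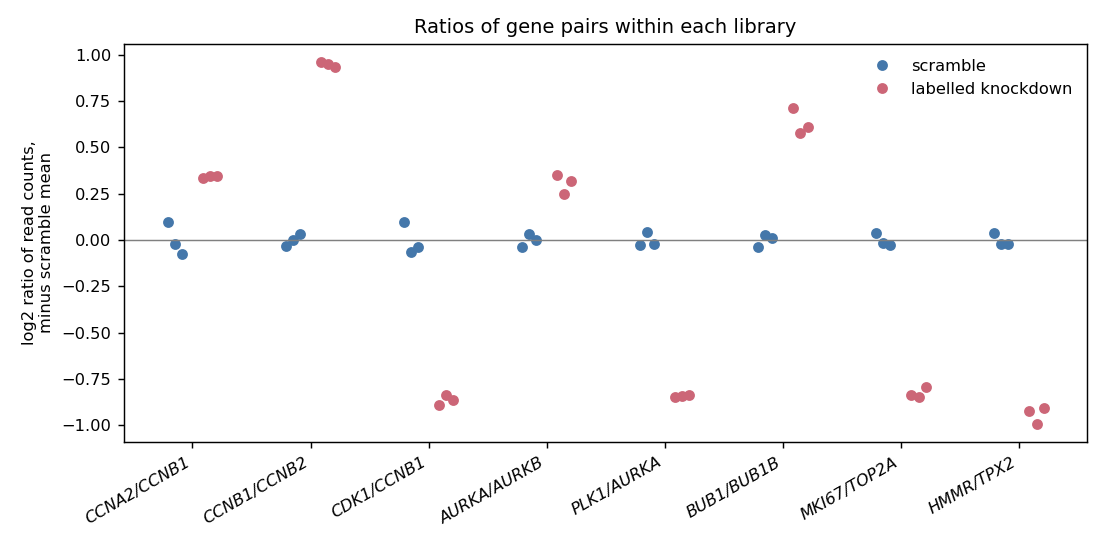
Log2 ratio of the read counts of 8 gene pairs in each library, less the scramble mean of that pair (vertical axis), for scramble (blue) and labelled knockdown (red). Every red cluster lies apart from its blue one, from CCNB1/CCNB2 at 0.95 to HMMR/TPX2 at -0.94. How many other gene pairs part in this way was not counted.

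The wider machinery was described with 9 lists of 95 genes in all, each gene counted once, and all 95 were tested. In the edgeR test 36 were higher in the labelled knockdown, 49 lower and 10 did not pass. Of all genes tested 43.4% were higher and 42.5% lower, which is the background for the uncorrected counts of each list below too. The list genes were thus lower more often than higher, while the shares of all genes were about equal. The median log2 fold change of the 95 was -0.16, beside 0.01 over all genes. With the correction for GC content and length 38 of the 92 covered were higher and 45 lower, and the medians were -0.04 and -0.07, so the order of the medians turned. Of all 11967 genes covered by that correction 4770 were higher and 5566 lower, which is the background for the corrected counts below. No set test was made. Each of these lists, like the 10 genes, held members past the threshold in both directions.

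The first list held phosphatases, inhibitory kinases and small subunits of CDK1, and with them CDK2, its E-type cyclins and CCNF. Of these 11 genes 7 were higher and 3 lower (median 0.42), and 5 were higher and 4 lower with the correction for GC content and length (median 0.03). CCNE2 (log2 fold change 0.73 ± 0.06 SE) and CCNE1 (0.67 ± 0.07), the E-type cyclins of S phase entry, were highest by change, while their kinase CDK2 (-0.68 ± 0.04) and the phosphatase gene CDC25A (-0.64 ± 0.04) were lower. WEE1, the kinase that holds CDK1 inactive, was higher (0.61 ± 0.05), as was CDC25B (0.58 ± 0.04), whose product reverses that hold. With that correction CDC25B was at 0.12 and CCNE1 at 0.44.

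Of 14 genes of the anaphase-promoting complex, which marks the cyclins and securin for destruction, and its regulators and targets, 6 were higher and 7 lower (median -0.06). ANAPC11, its catalytic RING subunit, went from 17.5 ± 1.43 to 63.0 ± 2.64 CPM (SD, n = 3). Its activators FZR1 (log2 fold change 0.97 ± 0.05 SE) and CDC20 (0.69 ± 0.04) were higher too. The inhibitor gene FBXO5 (-0.84 ± 0.04) and UBE2S (-0.97 ± 0.16), which lengthens ubiquitin chains, were lower. PTTG1, which encodes securin, was lower (-0.68 ± 0.04). Of the other subunit genes listed, ANAPC1 (-0.51 ± 0.06), CDC27 (-0.23 ± 0.03) and CDC23 (-0.16 ± 0.04) were lower. CDC16 (0.16 ± 0.07, edgeR adjusted p = 0.0448) was higher. With the correction for GC content and length ANAPC11 was at 1.33, FZR1 at 0.38 and CDC20 at 0.25. ANAPC1 was then at -0.25, CDC23 at -0.11 and CDC16 at 0.10 (edgeR adjusted p = 0.303), and CDC27 turned to 0.08.

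Transcription factors of the DREAM complex and its activating counterpart were lower in 9 of 16 cases and higher in 6 (median -0.39). E2F4, the main E2F protein of DREAM, went from 310.1 ± 9.85 to 89.6 ± 2.11 CPM (SD, n = 3). That is a change of -1.79 ± 0.04 (SE) on the log2 scale. The core subunit genes LIN9 (-0.98 ± 0.06) and LIN52 (-0.98 ± 0.08) and the pocket protein genes RBL1 (-0.77 ± 0.04) and RBL2 (-0.82 ± 0.05) were lower. FOXM1 (-0.50 ± 0.03) and MYBL2 (-0.58 ± 0.04), activators of mitotic genes, were lower as well. E2F1 (0.80 ± 0.05) and the histone-binding subunit RBBP4 (0.57 ± 0.05) were higher. The core subunit genes LIN37 (0.39 ± 0.11) and LIN54 (0.17 ± 0.05) were higher too, so the core subunits did not move together. With the correction for GC content and length 10 of the 16 were lower and 5 higher (median -0.58). E2F1 was then at 0.21, RBBP4 at 0.88, RBL1 at -0.52, FOXM1 at -0.76 and MYBL2 at -1.06. LIN54 was at 0.46 with that correction, and LIN37 turned to -0.23.

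Of 8 partners of the Aurora kinases 5 were higher and 3 lower (median 0.19), but 3 were higher and 4 lower with the correction for GC content and length. TPX2, which activates Aurora A on the spindle, went from 761 ± 13.1 to 496 ± 2.66 CPM (SD, n = 3), while AURKA was higher. Within the chromosomal passenger complex, INCENP was lower (log2 fold change -0.81 ± 0.04 SE) and CDCA8 (0.50 ± 0.04) and BIRC5 (0.34 ± 0.04) higher. AURKC, an Aurora kinase of germ cells, was at 0.314 ± 0.118 and 0.582 ± 0.0887 CPM. It is 1 of the 5 counted as higher (edgeR adjusted p = 0.0434). Among other scalings, filters, tests, the replicate block and left-out libraries that call was lost in 7 alternatives, which leaves 4. The call was lost too at a threshold of 0.01, against a 1.5-fold change and with the correction for GC content and length (edgeR adjusted p = 0.2825). With the correction for GC content and length INCENP was at -1.29 and BIRC5 at 0.17. Of the Polo-like kinase family and its partners, 3 of 7 were higher and 4 lower (median -0.18), or 3 and 3 with that correction (median 0.05). The stress-responsive relatives PLK2 (1.23 ± 0.03) and PLK3 (1.02 ± 0.09) were higher, while PLK1 was lower. BRCA2, a DNA repair gene whose product PLK1 phosphorylates (-1.37 ± 0.06), and the cytokinesis genes KIF20A (-0.53 ± 0.03) and PRC1 (-0.49 ± 0.03) were lower. With that correction PLK3 was at 0.49 and BRCA2 at -0.84.

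Of 11 spindle checkpoint genes other than BUB1, 8 were lower, where 42.5% of all genes were, and 1, ZW10, was higher (median -0.22). CASC5, the kinetochore scaffold that holds BUB1, had the largest change (log2 fold change -1.05 ± 0.05 SE). BUB1B (-0.41 ± 0.04) and the BUB1 partner BUB3 (-0.24 ± 0.03) were lower, whereas BUB1 was higher. With the correction for GC content and length, which covered 8 of the 11, 3 were lower and 3 higher, and BUB3 turned to 0.07. Kinetochore and centromere genes were higher in 4 of 12 and lower in 6 (median -0.18, or 0.07 with that correction, 6 higher and 5 lower). CENPI (1.05 ± 0.06) and DSN1 (0.80 ± 0.04) were higher, and CENPF (-0.58 ± 0.03) and MIS12 (-0.58 ± 0.05) lower, CENPF by less with that correction (-0.21).

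Condensin and chromosome structure genes were lower in 6 of 10 cases and higher in 3 (median -0.19, or -0.01 with the correction for GC content and length, 5 in each direction). SMC4, a core subunit of both condensins, went from 603 ± 21.6 to 312 ± 4.18 CPM (SD, n = 3), and NCAPD2 of condensin I was lower (log2 fold change -0.69 ± 0.03 SE). NCAPH2 (1.25 ± 0.05, or 0.64 with that correction) and NCAPG2 (0.57 ± 0.03), both of condensin II, were higher. The condensins did not part cleanly, since NCAPD3 of condensin II was lower (-0.22 ± 0.03) and NCAPG of condensin I higher (0.27 ± 0.03). Of 9 proliferation markers often used beside MKI67, 2 were higher, 3 lower and 4 did not pass (median -0.01), while with that correction 4 were higher and 5 lower (median -0.20). TK1 (0.71 ± 0.04) and BIRC5 were higher and RRM2 (-0.85 ± 0.03), PCNA (-0.64 ± 0.03) and MCM2 (-0.47 ± 0.04) lower. With that correction TK1 was at 0.09, BIRC5 at 0.17 and MCM2 at -0.89. TOP2A was at 835 ± 5.75 and 820.4 ± 20.2 CPM (adjusted p = 0.395), with a 95% interval of its log2 fold change from -0.08 to 0.03, though it was at 0.25 with the correction for GC content and length (adjusted p = 3.56e-11).

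**Figure D4:**
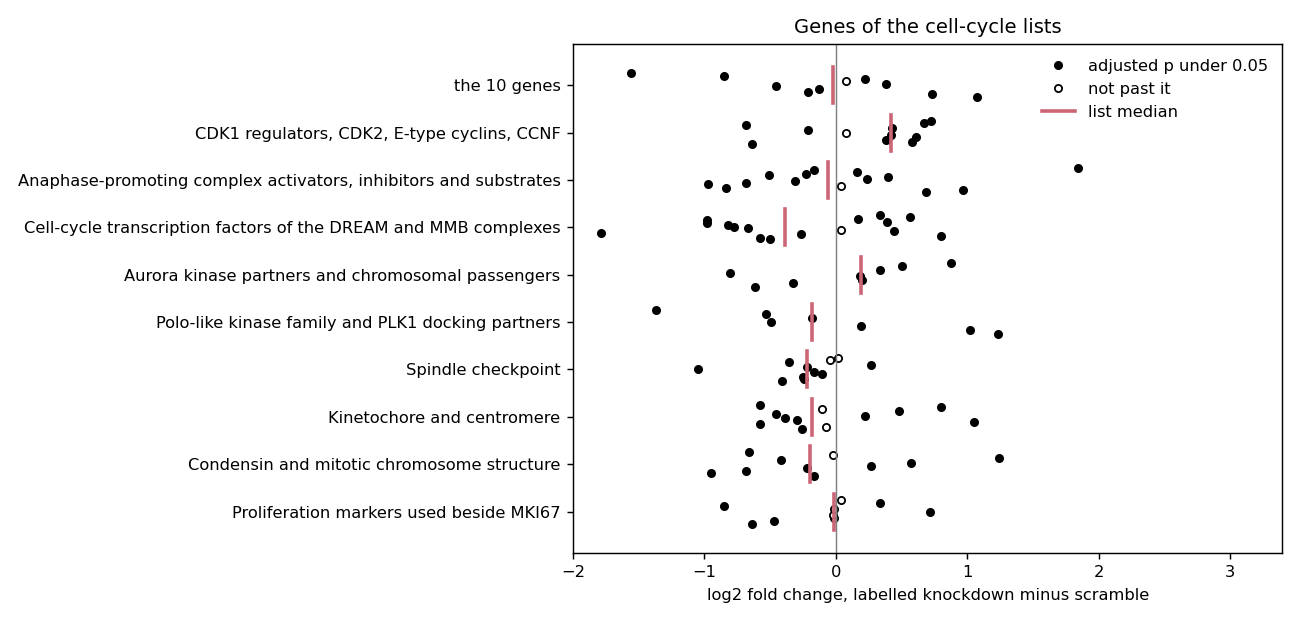
Log2 fold change, labelled knockdown minus scramble (horizontal axis), of the 10 genes and of each gene in the 9 lists, 1 list per line. Filled points passed an adjusted p of 0.05, open points did not, and the red bar is the list median, which runs from -0.39 for the DREAM and MMB transcription factors (MMB is the activating complex with MYBL2) to 0.42 for the list of CDK1 regulators, CDK2, E-type cyclins and CCNF.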

How the data were processed

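Polyadenylated RNA was read from 6 libraries, 3 per group by their titles, as single reads of 50 bases from stranded libraries, per the labels' protocols. Tools named in the submitters' processing notes are bcl2fastq, TopHat2 2.0.8b and HTSeq, with build hg19, and the authors deposited raw read counts per gene. Which annotation and strand setting served is not given in the sources used here. Summary lines for reads in no gene, several genes or several places were left out. They made up 49.0% to 49.7% of a file's total in scramble and 41.0% to 41.2% in the labelled knockdown. Reads in no gene alone were 14.4% to 15.0% and 11.0% to 11.1%. The part of this difference in the results was not tested. Genes kept by filterByExpr (13606 of 23228) were tested with edgeR 4.0.16 (TMM, robust quasi-likelihood, two-sided, Benjamini-Hochberg over all genes tested, threshold 0.05) in R 4.3.3. The SE is the log2 fold change over the root of F. Intervals cover the spread between libraries. Replicates were not copies of 1 library: chi-square over its degrees of freedom ran from 1.69 to 3.55. Alternatives were other scalings, filters, thresholds, DESeq2 1.42.0, limma-voom 3.58.1, a replicate block and left-out libraries. Added after seeing the data was a loess correction for GC content and length (11967 genes, 88.0%). Reads carry no molecular identifiers. The 10 genes and the lists were chosen with earlier results of these data known. Named genes are the 10, their ratio partners, SCUBE3 and up to 2 per list and direction by largest change. List genes whose role a sentence needs are named too. Of these, NCAPD3, NCAPG, LIN37, LIN54, ANAPC1, CDC27, CDC23 and CDC16 were named after their values were seen. EXOSC9 was chosen after its values were seen.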

Additional observations from a re-analysis of the deposited data

How the results depend on the processing

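Over 18 alternatives, CCNA2, CCNB1, MKI67 and HMMR kept their direction and call. CCNB2, PLK1, AURKA and BUB1 lost the call only against a 1.5-fold change (edgeR glmTreat). That test left 2 members higher and 2 lower, 3307 and 2944 of all genes, and 11 and 18 list genes. CDK1 lost it there too, and turned to 0.18 with the correction for GC content and length (0.18 with the replicate block added). AURKB turned to -0.43 with that correction, with or without the block, and passed with library totals alone (0.13, adjusted p = 0.00307). The cause was not tested. SCUBE3 was at -0.0416 without scramble replicate 3, the lowest with 1 library left out, and at 0.0875 without scramble replicate 2, the highest. Replicate numbers are shared by the groups, but deviations of same-numbered libraries correlated at 0.169, 0.157 and -0.036, so the numbers are not taken as pairs, and scramble replicate 3 correlated best with number 2. With the replicate block 5 members were higher and 5 lower, since AURKB passed (0.08, edgeR adjusted p = 0.0485). With 1 library left out 4 to 5 members were higher and 5 lower. HMMR, whose lowest count was 425 reads, had the largest SE of the 10 (0.06).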

Other observations

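Relatives of the cyclins that are known mainly from germ cells were read at low levels. CCNA1, the germ-cell A-type cyclin, had 2.22 ± 0.612 CPM in scramble and 5.03 ± 0.179 in the labelled knockdown (SD, n = 3; log2 fold change 1.19 ± 0.17 SE, edgeR adjusted p = 3.14e-08), beside a log2 fold change of 1.08 for CCNA2. CCNB3 had 2.55 ± 0.476 and 2.91 ± 0.260 CPM (adjusted p = 0.333). AURKAPS1, listed as a pseudogene of AURKA, had 8.64 ± 0.810 and 16.2 ± 1.39 CPM (adjusted p = 1.15e-11), and its reads may be hard to tell from those of AURKA. These 3 genes were picked by name with no rule fixed for them.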
